A study of Rattus norvegicus with 10 samples.

Results

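The genes described here encode the oxidative phosphorylation machinery of mitochondria in the cerebral cortex of rats, in 2 sets that lie in different genomes. They were chosen by symbol. A gene was taken if it is a protein-coding gene of the mitochondrial genome (Mt-nd, Mt-co, Mt-cyb or Mt-atp) or a nuclear gene named for a subunit or assembly factor of complexes I to V (Nduf, Sdha to Sdhd, Uqcr, Cox4 to Cox8, Atp5). It also had to reach 0.5 FPKM (fragments counted for a gene, scaled by transcript length and library size) in at least 5 of 10 libraries. Of 32623 genes in the deposited table, 111 rows carry such a name, under 107 symbols. The minimum left 103 genes among the 15169 of the table that pass it, 13 in the mitochondrial and 90 in the nuclear genome. Where a symbol had several rows, the row with the highest mean FPKM was used. The 4 symbols below the minimum are Cox7b2, Cox8b, Cox8c and the pseudogene Cox6c-ps1.

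The respiratory chain passes electrons from NADH and succinate to oxygen through complexes I to IV and pumps protons across the inner mitochondrial membrane, and complex V, the ATP synthase, uses that gradient to make ATP. Neurons draw most of their ATP from it. Complexes I, III, IV and V are built from subunits of both genomes, whereas complex II is wholly nuclear. The mitochondrial genes are transcribed together as long precursors from which single RNAs are cut and polyadenylated, while each nuclear gene has its own promoter.

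The samples were cerebral cortex of adult male Sprague-Dawley rats. The EA group of 5 had received electroacupuncture, a pulsed current through needles at the head acupoints Baihui and Shuigou. The control group of 5 was bound for the same time. The study mentions no needles for controls, so needling and current cannot be told apart. Both groups were anesthetized with pentobarbital and perfused with saline before the cortex was taken. The sources used here do not state how rats were allocated to cages or days, and that the libraries come from separate rats is implied rather than stated, so the p-values measure the spread between these samples. Poly(A) RNA was sequenced, and each library holds 47843590 (EA 3) to 61707722 (control 5) deposited counts. These exceed the valid reads that the study lists for the same library, in all 10, so they are not a tally of single reads and are treated as estimated counts. Because whole cortex was measured, fewer cells of a type and less RNA per cell cannot be told apart.

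Markers of neurons, astrocytes, oligodendrocytes and microglia were all detected, in keeping with the tissue label, and no marker of a cell type that the table lists was at 0 in every library. EA 2 and EA 5 stand apart through structural RNA, such as the signal recognition particle RNA, whose summed FPKM was 1218 and 1562 against 353 to 402 in the other 8 libraries. Both structural RNAs that could be tested by symbol, Rn7sl1 and Rpph1, had an unadjusted p under 0.05 and were higher in the EA group. Control 1 and EA 3 stand apart in the genes described here, and the log2 fold changes of the 13 mitochondrial genes are given below with and without either library.

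All 13 mitochondrial genes had a higher fitted level in the EA group, by 1.05- to 1.22-fold, while 60 of the 90 nuclear genes had a lower one. Over all 15169 genes tested, 49.5% lay above 0 and 50.5% below. The median log2 fold change (EA over control) was 0.15 for the mitochondrial genes, with a range of 0.08 to 0.28. For the nuclear genes it was -0.03, with a range of -0.37 to 0.50, and for all genes it was -0.0018. None of the 103 genes was called different, where a call needs an adjusted p under 0.05 in edgeR's quasi-likelihood test and a fold change above 1.2. Only 3 of all genes (0.0198%) were called by that rule. DESeq2 also called none of the 103, against 166 of all genes (1.09%).

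At an unadjusted p under 0.05, without a call, lay 16 of the 103 genes in either direction (15.5%), near the 13.7% of all genes. The counts that follow divide them by direction. Among the mitochondrial genes 2 of 13 (15.4%), Mt-atp8 and Mt-nd2, were higher in the EA group and none was lower. Among the nuclear genes 13 of 90 (14.4%) were lower and 1 (1.11%), Ndufaf4, was higher. The shares over all genes were 6.59% higher and 7.15% lower, or 13.7% in either direction. The nuclear count of 13 fell to 8 without control 3, to 7 without EA 5 and to 6 without EA 2 and EA 5. It was 21 with limma on log2(FPKM + 1). The share of all genes under each of these settings is not given here. A change in the nuclear genes therefore cannot be told apart from a change in all genes.

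The mitochondrial count rests on control 1 more than on any other library. Without it, 10 of the 13 genes lay at an unadjusted p under 0.05, all higher in the EA group. The median log2 fold change was then 0.23, and the lowest edgeR adjusted p was 0.0673, for Mt-atp8. Control 1 was singled out by these same values, as the highest control for 12 of the 13 genes. The figures without it therefore follow in part from that choice and add no support. Because the 13 genes are transcribed together, they are not 13 separate results. Leaving out control 2, 3 or 4, EA 3 or EA 5 instead left 1 gene at an unadjusted p under 0.05. The share of all genes at that p is not given for these settings either. The 103 genes held no call under any of these settings, and all 13 mitochondrial genes stayed above 0 in each. The sizes depended on which library was left out. All 13 log2 fold changes were larger without control 1 (0.13 to 0.40), 6 of them by over 1.5 times, and all 13 were smaller without EA 3 (0.03 to 0.23), 8 of them by over 1.5 times.

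**Figure D1:**
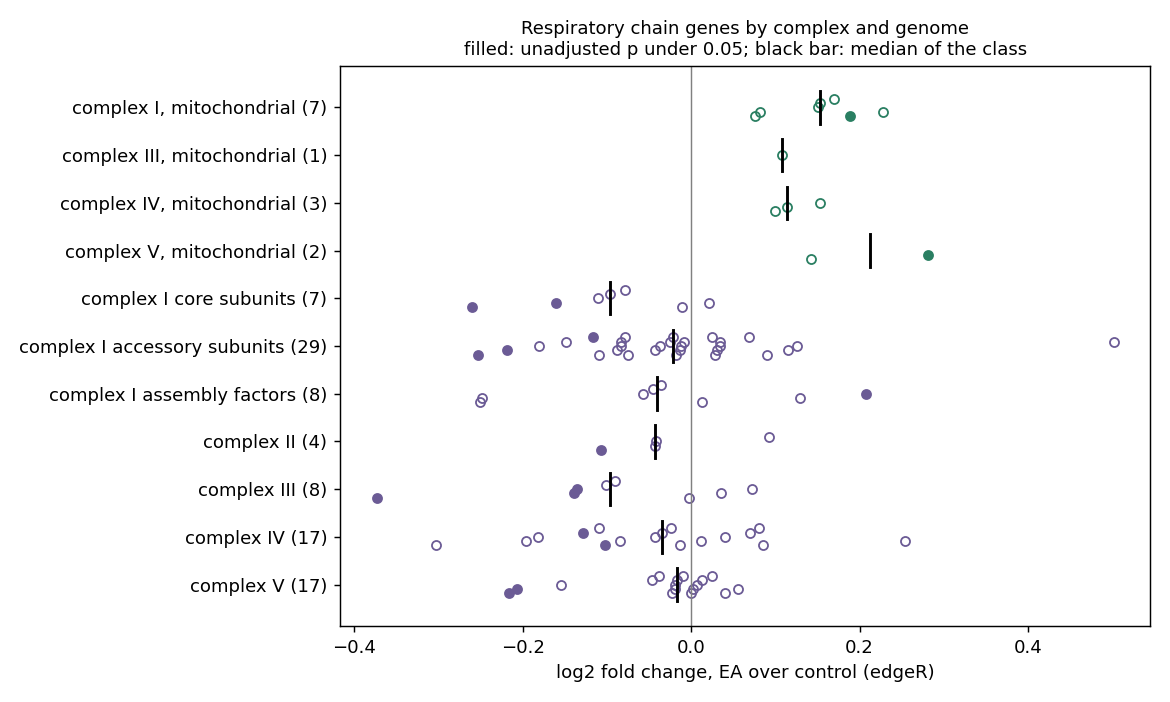
Log2 fold change (EA over control, edgeR) on the horizontal axis for each of the 103 genes, 1 point per gene, in rows by complex and genome with the number of genes in brackets; filled points have an unadjusted p under 0.05 and black bars mark the median of each row. All 4 mitochondrial rows lie to the right of 0, with medians from 0.11 to 0.21, and all 7 nuclear medians lie to the left, from -0.10 to -0.02.

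The summed levels show the size of both sets in each library. The 13 mitochondrial genes summed to 248770, 201410, 209860, 198460 and 222040 FPKM in controls 1 to 5 and to 232500, 225410, 262040, 230790 and 227820 FPKM in EA 1 to 5. That was 35.7% (control 4) to 43.9% (EA 3) of all FPKM in a library. The 90 nuclear genes summed to 10511, 11514, 11450, 11731 and 11191 FPKM in controls 1 to 5 and to 11053, 10920, 10231, 10903 and 10659 FPKM in EA 1 to 5. In both sums the groups overlap through control 1 alone, whose mitochondrial sum is the highest and whose nuclear sum is the lowest among controls. Without it, every EA library lies above every control in the first sum and below every control in the second. Control 1 was singled out by these same values. Separation of the groups without it, here and in the values below, therefore follows in part from that choice and adds no support.

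FPKM values of one library share a total, so a high mitochondrial sum lowers every other FPKM. The ratio of both sums within a library does not depend on that total. It was 23.7, 17.5, 18.3, 16.9 and 19.8 in controls 1 to 5 and 21.0, 20.6, 25.6, 21.2 and 21.4 in EA 1 to 5. On the log2 scale the ratio averaged 4.26 ± 0.193 in the control group and 4.45 ± 0.128 in the EA group (SD, n = 5 each), a difference of 0.20 with a standard error of 0.104. No p-value is given for this score, since the genes were chosen with earlier results known. Without control 1 the difference was 0.27 and the groups did not overlap, and without EA 3 it was 0.14. Set against FPKM outside the mitochondrial genome, the nuclear genes held 3.34 ± 0.0580% in the control group and 3.25 ± 0.0560% in the EA group. In this share the groups overlapped, and they still did so without control 1 (EA 1 at 3.34%, control 5 at 3.32%).

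**Figure D2:**
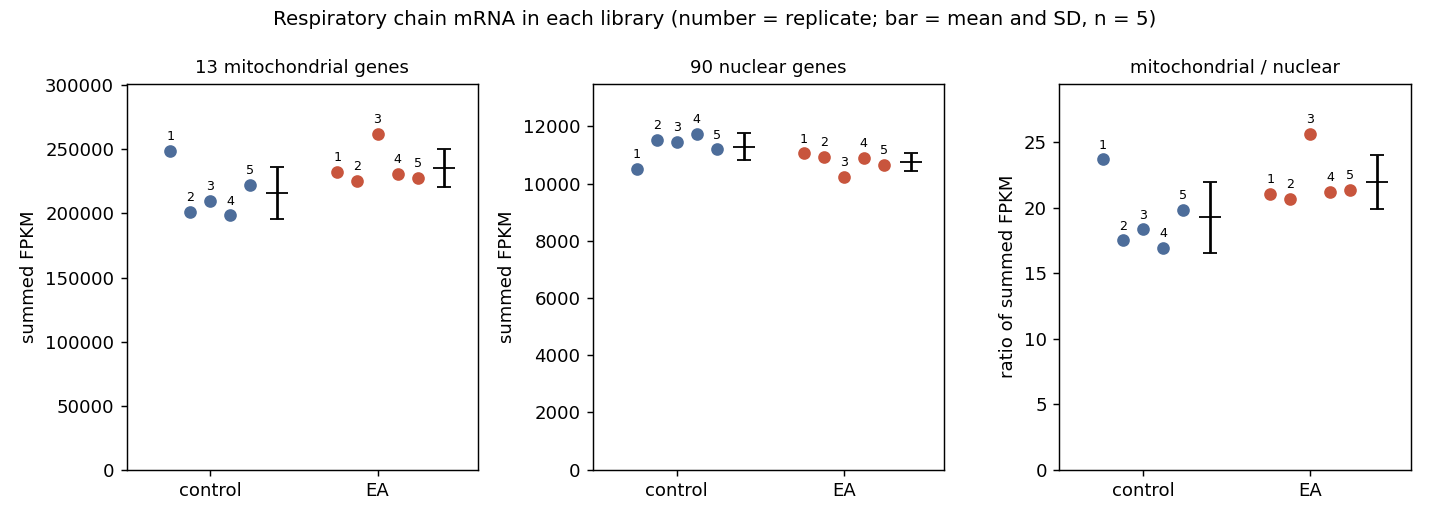
Summed FPKM of the 13 mitochondrial genes, summed FPKM of the 90 nuclear genes, and their ratio, with 1 point per library, its replicate number above it, and the mean and SD of each group (n = 5) as bars beside the points. Control 1 lies with the EA libraries in all 3 panels, and EA 3 has the highest ratio, 25.6.

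The same ratio was taken within each complex of mixed origin. The log2 difference between groups was 0.19 (SE 0.122) for complex I, 0.19 (SE 0.0940) for complex III, 0.17 (SE 0.0911) for complex IV and 0.24 (SE 0.107) for complex V. The groups overlapped in all 4. Without control 1 they separated for complexes III, IV and V but not for complex I, and the differences were 0.28, 0.25, 0.24 and 0.32 in the same order. Without EA 3 they were 0.13, 0.12, 0.12 and 0.18, with overlap in all 4. A mitochondrial subunit gene of complex I averaged 8692 FPKM in controls and a nuclear one 87.6, while for complex V these means were 28321 and 181. Complex II, which has no mitochondrial subunit, summed to 347 ± 10.9 FPKM in the control group and 333 ± 16.3 in the EA group (SD, n = 5 each), with overlap.

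Control 1 and EA 3 moved as whole libraries. In control 1 all 13 mitochondrial genes lay above the mean of the other 4 controls, by a median of 0.28 on the log2 scale, and 24 of 89 nuclear genes did so. It was the highest control for 12 of the 13 mitochondrial genes and the lowest for 50 of the 90 nuclear genes. EA 3 was the highest of all 10 libraries for 10 mitochondrial genes and for no nuclear gene. EA 3 is also the library with the fewest counts, while control 1, with 59113127 counts, is not, and the part of depth in the result was not tested.

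Levels of the mitochondrial genes, compared per length, ran from 35102 FPKM for Mt-atp6 down to 3605 FPKM for Mt-nd6, as means over the 10 libraries. The order was Mt-atp6, Mt-co1, Mt-co3, Mt-atp8, Mt-co2, Mt-nd2, Mt-cyb, Mt-nd1, Mt-nd4l, Mt-nd4, Mt-nd3, Mt-nd5 and Mt-nd6. Most neighbours in that order kept it in 9 or 10 libraries. Mt-atp6 exceeded Mt-co1, Mt-atp8 exceeded Mt-co2 and Mt-nd2 exceeded Mt-cyb in only 7 of 10, so those pairs are not ordered beyond their spread. Coefficients of variation over the 10 libraries were 6.28% to 15.9%, with a median of 9.45%, against a median of 7.12% for the nuclear genes.

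Both mitochondrial subunits of the ATP synthase belong to the part that lies in the membrane. Mt-atp8 (chromosome MT, bases 7758 to 7961 in Rnor_6.0) had the largest change of the 13. Its level was 29225, 20564, 21267, 20841 and 23069 FPKM in controls 1 to 5 and 26788, 26610, 30392, 27272 and 26619 FPKM in EA 1 to 5. Only control 1 reaches into the range of the EA group, where 4 of 5 values lie between 26610 and 27272 FPKM. The log2 fold change was 0.28 (SE 0.10, edgeR adjusted p = 0.267, range over the alternatives 0.0673 to 0.536), and it was 0.40 without control 1 and 0.23 without EA 3. Mt-atp6, whose reading frame overlaps the end of Mt-atp8, averaged 33649 ± 2804 FPKM in the control group and 36555 ± 2305 FPKM in the EA group (SD, n = 5 each), a log2 fold change of 0.14 (SE 0.08, edgeR adjusted p = 0.451). It was 0.20 without control 1 and 0.10 without EA 3. Reads in the overlap can be split between both genes, and they sit on 1 shared transcript.

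Of the 7 mitochondrial subunits of complex I, which form the proton-pumping membrane arm, Mt-nd2 had the lowest p and Mt-nd4 the largest fold change. The level of Mt-nd2 was 18285, 15101, 15425, 14687 and 17112 FPKM in controls 1 to 5 and 17318, 17243, 20170, 17587 and 18162 FPKM in EA 1 to 5. All its EA values exceed all controls but control 1. For Mt-nd2 the log2 fold change was 0.19 (SE 0.08, edgeR adjusted p = 0.340), 0.25 without control 1 and 0.14 without EA 3. Mt-nd4 had a log2 fold change of 0.23 (SE 0.12, edgeR adjusted p = 0.425) that leaned on EA 3, with 9231 FPKM against 5788 to 7110 in the other EA libraries and 5595 to 6906 in controls. It was 0.10 without that library and 0.25 without control 1. Mt-nd4l, which overlaps Mt-nd4, and Mt-nd3, Mt-nd6, Mt-nd5 and Mt-nd1 had log2 fold changes of 0.15, 0.17, 0.15, 0.08 and 0.08. In the same order these were 0.24, 0.28, 0.24, 0.16 and 0.13 without control 1 and 0.10, 0.10, 0.11, 0.03 and 0.04 without EA 3. Mt-nd6, Mt-nd5 and Mt-nd1 also fell to 0.09, 0.04 and 0.04 without control 4, and Mt-nd5 to 0.05 without control 2. Mt-nd6 is the only 1 of the 13 on the opposite strand, and it overlaps Mt-nd5.

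Mt-cyb, the cytochrome b of complex III, averaged 16359 ± 1282 FPKM in the control group and 17347 ± 1191 in the EA group (SD, n = 5 each), a log2 fold change of 0.11 (SE 0.08, edgeR adjusted p = 0.587). It was 0.16 without control 1, 0.07 without control 4 and 0.05 without EA 3. The 3 mitochondrial subunits of complex IV form its catalytic core. Mt-co1 had a log2 fold change of 0.10 (SE 0.09), Mt-co2 of 0.15 (SE 0.09) and Mt-co3 of 0.11 (SE 0.07), with edgeR adjusted p-values of 0.654, 0.461 and 0.526. In the same order the log2 fold changes were 0.18, 0.23 and 0.16 without control 1 and 0.05, 0.10 and 0.07 without EA 3, and that of Mt-co1 was 0.18 without EA 2 and EA 5. For Mt-co1, 37893 FPKM in control 1 was the highest of all libraries, and EA 2 (31539) and EA 5 (31418) lay on either side of control 5 (31466). Without control 1, the EA group lay wholly above the controls for Mt-co3, Mt-atp8 and Mt-nd2 and for no other mitochondrial gene, where 1.96% of all genes did so.

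**Figure D3:**
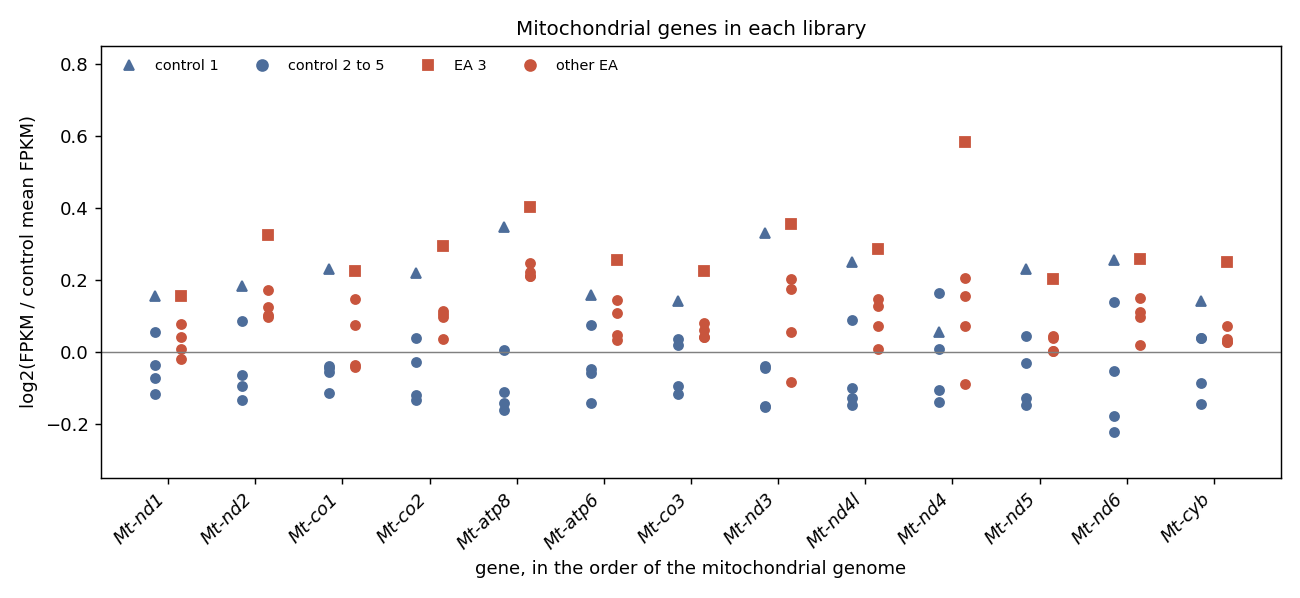
Level of each mitochondrial gene in each library as log2 of its FPKM over the control mean, with genes on the horizontal axis in the order of the genome, control libraries as blue points on the left and EA libraries as red points on the right of each gene. Triangles mark control 1 and squares EA 3, which are the highest of their group in 12 and 13 of the 13 genes.

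The other RNAs of the mitochondrial genome were read from their annotated type on chromosome MT. Both ribosomal RNAs had positive log2 fold changes, 0.16 (SE 0.08, edgeR adjusted p = 0.418) for the one of 958 bases and 0.23 (SE 0.08, edgeR adjusted p = 0.277) for the one of 1571 bases. Of the 22 transfer RNAs 9 lay above 0, with a median of -0.08. The log2 ratio of messenger to ribosomal RNA was 4.42 ± 0.0759 in the control group and 4.38 ± 0.130 in the EA group (SD, n = 5 each), with overlap. Poly(A) selection and fragment length limit what these libraries hold of both RNA classes.

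Among the nuclear genes, 4 had an EA group wholly below the control group (2.25% of all genes did so) and 1 had it wholly above (0.85% of all genes). Ndufa2, an accessory subunit in the matrix arm of complex I (chromosome 18, 29585671 to 29587760 in Rnor_6.0, minus strand), stood at 72.1, 80.6, 82.2, 76.6 and 76.2 FPKM in controls 1 to 5. In EA 1 to 5 it stood at 68.2, 63.2, 64.9, 68.5 and 62.9 FPKM. The lowest control lies above the highest EA library. The log2 fold change was -0.22 (SE 0.05), the lowest p of the 103 genes, and it did not pass the test (edgeR adjusted p = 0.172). DESeq2 gave an adjusted p of 0.0232, with a fold below the limit of 1.2, and the range over all alternatives was 0.0232 to 0.493.

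Atp5f1e encodes the small epsilon subunit in the stalk of the ATP synthase (chromosome 3, 172563105 to 172566010 in Rnor_6.0, minus strand). It stood at 257, 267, 310.1, 271 and 263 FPKM in controls 1 to 5 and at 233, 229, 236, 241 and 228 FPKM in EA 1 to 5. The lowest control, control 1, lies above the highest EA library, EA 4, and the EA libraries lie within a narrow band. Its change on the log2 scale was -0.21 (SE 0.05, edgeR adjusted p = 0.183, range over the alternatives 0.0426 to 0.525, the lowest from DESeq2).

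Sdhc, a membrane anchor of complex II (chromosome 13, 89498048 to 89518939 in Rnor_6.0, minus strand), stood at 93.7, 97.9, 93.1, 96.6 and 95.4 FPKM in controls 1 to 5 and at 88.7, 91.0, 82.6, 86.0 and 87.3 FPKM in EA 1 to 5. For Sdhc the log2 fold change was -0.11 (SE 0.04, edgeR adjusted p = 0.255). Ndufb11, an accessory subunit of the membrane arm of complex I (chromosome X, 1787266 to 1789524 in Rnor_6.0, plus strand), stood at 50.7, 57.8, 52.5, 56.2 and 50.8 FPKM in controls 1 to 5. In EA 1 to 5 it stood at 50.2, 48.1, 49.4, 49.5 and 45.8 FPKM, so control 1 and EA 1 nearly touch. Its log2 fold change was -0.12 (SE 0.05, edgeR adjusted p = 0.326), and -0.07 without EA 2 and EA 5.

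Cox6c, a subunit on the membrane side of complex IV (chromosome 7, 74723179 to 74735650 in Rnor_6.0, minus strand), was the gene with the opposite order. It stood at 303, 284, 303, 293 and 301 FPKM in controls 1 to 5 and at 323, 304, 306, 310.3 and 309 FPKM in EA 1 to 5. The gap between control 3 and EA 2 is under 1 FPKM. Its log2 fold change was 0.09 (SE 0.04, edgeR adjusted p = 0.387). Without control 1, the EA group lay wholly below the controls for 16 nuclear genes (6.38% of all genes) and wholly above for Cox6c alone.

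**Figure D4:**
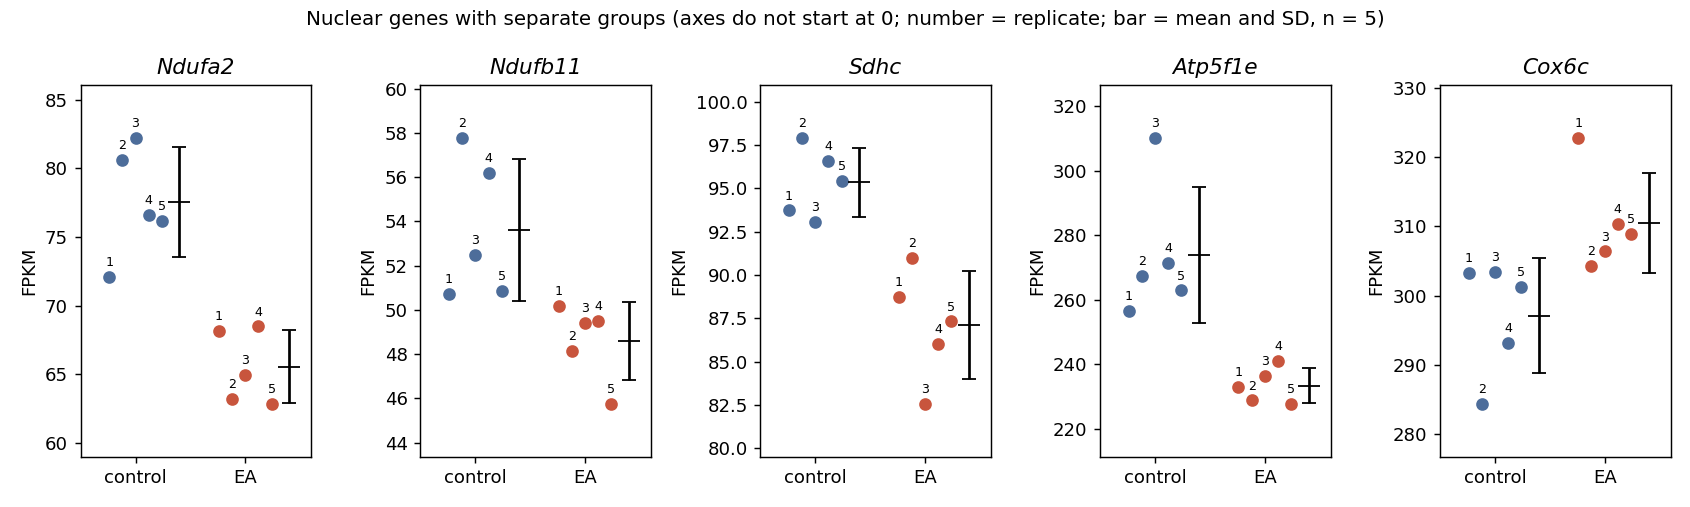
FPKM of the 5 nuclear genes whose control and EA groups did not overlap, with 1 point per library, its replicate number above it, and the mean and SD of each group (n = 5) beside the points; the vertical axes do not start at 0. Ndufa2, Ndufb11, Sdhc and Atp5f1e are lower in every EA library and Cox6c is higher in every EA library.

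The sequences before the start sites of these genes are shown because nuclear respiratory genes are known for sites of shared transcription factors there. RefSeq (GRCr8) gave a promoter for 78 of the 90 nuclear genes, and the 250 bases before each start were searched on both strands. The motifs were the NRF1 core GCGCATG, the ETS core CCGGAAG that GABP binds, the YY1 core AAGATGG, the Sp1 box GGGCGG, and the core AAGGTCA of estrogen-related receptors. Capitals mark any match to them or to their reverse complements, and no matches of different motifs overlap in the sequences shown. Cox6c has no entry in the table. The first 4 sequences are those of the genes with a wholly lower EA group, and the last 2 are those of the most abundant genes that hold the NRF1 core. They are given 5′ to 3′ on the strand of the gene.
Ndufa2, chr18:28631885-28632134, minus strand: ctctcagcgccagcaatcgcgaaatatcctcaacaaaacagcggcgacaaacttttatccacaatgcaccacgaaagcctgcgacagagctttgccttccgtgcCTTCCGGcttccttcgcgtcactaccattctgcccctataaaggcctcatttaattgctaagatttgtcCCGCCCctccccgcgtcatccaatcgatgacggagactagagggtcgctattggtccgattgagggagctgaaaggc
Atp5f1e, chr3:183680173-183680422, minus strand: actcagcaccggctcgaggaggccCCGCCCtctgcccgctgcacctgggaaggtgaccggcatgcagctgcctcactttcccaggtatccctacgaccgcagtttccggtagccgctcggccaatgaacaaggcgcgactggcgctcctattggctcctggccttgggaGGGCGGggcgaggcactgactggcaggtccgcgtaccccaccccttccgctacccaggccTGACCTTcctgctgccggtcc
Sdhc, chr13:86098026-86098275, minus strand: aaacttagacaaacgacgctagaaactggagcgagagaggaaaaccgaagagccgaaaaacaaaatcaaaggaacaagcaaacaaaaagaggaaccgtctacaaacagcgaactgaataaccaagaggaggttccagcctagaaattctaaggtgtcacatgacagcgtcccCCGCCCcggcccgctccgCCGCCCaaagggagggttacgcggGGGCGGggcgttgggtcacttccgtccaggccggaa
Ndufb11, chrX:4126067-4126316, plus strand: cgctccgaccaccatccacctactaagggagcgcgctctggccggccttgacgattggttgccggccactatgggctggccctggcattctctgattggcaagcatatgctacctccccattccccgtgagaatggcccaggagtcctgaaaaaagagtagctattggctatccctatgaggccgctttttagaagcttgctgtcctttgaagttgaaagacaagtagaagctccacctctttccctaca
Atp5mg, chr8:54130408-54130657, minus strand: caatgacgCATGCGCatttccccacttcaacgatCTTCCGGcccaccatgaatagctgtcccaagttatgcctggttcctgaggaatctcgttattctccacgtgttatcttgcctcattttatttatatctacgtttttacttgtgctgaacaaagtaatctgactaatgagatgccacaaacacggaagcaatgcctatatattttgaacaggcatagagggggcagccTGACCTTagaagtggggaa
Cox5b, chr9:46417587-46417836, plus strand: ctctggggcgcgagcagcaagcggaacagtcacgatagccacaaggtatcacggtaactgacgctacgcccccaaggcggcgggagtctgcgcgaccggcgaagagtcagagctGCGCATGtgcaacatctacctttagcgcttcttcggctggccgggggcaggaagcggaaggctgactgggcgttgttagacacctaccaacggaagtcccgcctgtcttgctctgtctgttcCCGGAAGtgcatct

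No motif stood in all 4 genes with a lower EA group. Ndufa2, Atp5f1e and Sdhc each hold the Sp1 box, which stood in 30.5% of all promoters. Ndufa2 holds an ETS core that begins at position -146 from the start, and 1 Sp1 box. Atp5f1e holds 2 Sp1 boxes and a receptor core, Sdhc holds 3 Sp1 boxes, and Ndufb11 holds none of the letters searched. Atp5mg, a membrane subunit of the ATP synthase, and Cox5b, a subunit of complex IV, hold the NRF1 core at positions -242 and -136, each with an ETS core as well. Their log2 fold changes were 0.00 (SE 0.04) and -0.13 (SE 0.04).

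Across the 78 promoters the NRF1 core stood in 13 (16.7%), against 3.26% of all 33469 promoters in the table. The ETS core stood in 20 (25.6%, against 7.27%), the receptor core in 7 (8.97%, against 3.99%), the Sp1 box in 26 (33.3%, against 30.5%) and the YY1 core in 4 (5.13%, against 4.62%). Of the 13 genes with the NRF1 core 8 had a log2 fold change below 0, with a median of -0.01, and of the other 65 genes 42 did, with a median of -0.02. Of the 20 with the ETS core 13 lay below 0 (median -0.06), and of the other 58 genes 37 did (median -0.02). Of the 7 with the receptor core 5 did (median -0.08), and of the other 71 genes 45 did (median -0.02). With the Sp1 box 18 of 26 lay below 0 (median -0.03), and without it 32 of 52 (median -0.02). With the YY1 core 0 of 4 did (median 0.02), and without it 50 of 74 (median -0.03). These are descriptions of letters in a window, without a test. Promoters were matched to genes by symbol. The genes with the Sp1 box include Ndufs6, whose row is a processed pseudogene, and Ndufa1, whose row is uncertain as described below. Ndufa1 is also among the genes with the ETS core.

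Complex I takes electrons from NADH, and its 7 nuclear core subunits carry the flavin and the iron-sulfur clusters. Of these, 6 had a log2 fold change below 0, with a median of -0.10. Ndufs7, which holds the last cluster before ubiquinone, stood at 42.4, 55.6, 56.6, 58.5 and 48.8 FPKM in controls 1 to 5 and at 43.8, 43.6, 43.1, 46.2 and 38.0 FPKM in EA 1 to 5. Control 1 alone lies inside the EA range. Its log2 fold change was -0.26 (SE 0.08, edgeR adjusted p = 0.223). Ndufs8, which holds 2 more clusters, averaged 61.3 ± 5.11 FPKM in the control group and 53.9 ± 2.51 in the EA group (SD, n = 5 each), a log2 fold change of -0.16 (SE 0.06, edgeR adjusted p = 0.279). Ndufv2, the most abundant core subunit at 119 FPKM, had a log2 fold change of -0.01 (SE 0.05). Ndufs1, the largest subunit, varied least of the 90 nuclear genes, with a coefficient of variation of 2.43%.

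The 29 accessory subunits of complex I surround that core. Their median log2 fold change was -0.02, with 19 below 0 and 10 above. At an unadjusted p under 0.05, 3 were lower in the EA group (Ndufa2, Ndufb7 and Ndufb11) and none was higher. These 3 are 10.3% of the class, near the 7.15% of all genes that were lower. Ndufb7 stood at 69.1, 85.6, 87.3, 90.8 and 91.6 FPKM in controls 1 to 5 and at 78.1, 65.7, 64.9, 76.0 and 65.7 FPKM in EA 1 to 5. Control 1 again lies with the EA libraries, and the log2 fold change was -0.25 (SE 0.08, edgeR adjusted p = 0.222). Ndufb9, the most abundant accessory subunit at 199 FPKM, averaged 204 ± 4.96 FPKM in the control group and 195 ± 5.86 in the EA group (SD, n = 5 each), a log2 fold change of -0.04 (SE 0.04).

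The 8 Ndufaf genes encode assembly factors that are not part of the finished complex, and they were the least abundant class, from 4.27 to 30.0 FPKM. Ndufaf4 was the nuclear gene with an unadjusted p under 0.05 in the upward direction. It stood at 7.17, 6.04, 6.84, 7.47 and 7.81 FPKM in controls 1 to 5 and at 8.19, 8.48, 7.80, 7.89 and 7.83 FPKM in EA 1 to 5, and only control 5 reaches the EA range. Its log2 fold change was 0.21 (SE 0.07, edgeR adjusted p = 0.262). Ndufaf7, a methyltransferase, had a log2 fold change of 0.13 (SE 0.06, edgeR adjusted p = 0.364), and Ndufaf8 of -0.25 (SE 0.12, edgeR adjusted p = 0.364). Without EA 2 and EA 5 these were 0.08 and -0.13.

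Complex II feeds electrons from succinate and is also an enzyme of the citric acid cycle. Beside Sdhc, its catalytic flavoprotein Sdha was the most abundant gene at 109.7 FPKM, with a log2 fold change of -0.04 (SE 0.05). Sdhd, the other membrane anchor, went the other way from Sdhc. It averaged 59.2 ± 3.06 FPKM in the control group and 62.2 ± 5.78 in the EA group (SD, n = 5 each), a log2 fold change of 0.09 (SE 0.06, edgeR adjusted p = 0.509). It was 0.14 without EA 3, 0.06 without EA 2 and 0.04 without EA 2 and EA 5. Sdhb, the iron-sulfur subunit, stayed within 72.4 to 85.6 FPKM in all libraries.

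Complex III passes electrons to cytochrome c. Of its 8 nuclear genes 6 lay below 0, with a median of -0.10. At an unadjusted p under 0.05, 3 (37.5%) were lower in the EA group, Uqcr11, Uqcr10 and Uqcrc1, and none was higher. Over all genes 7.15% were lower. Uqcr11, a small subunit and the most abundant of the class at 337 FPKM, stood at 319, 375, 383, 349 and 351 FPKM in controls 1 to 5 and at 329, 321, 300.2, 340.4 and 298 FPKM in EA 1 to 5. Its log2 fold change was -0.14 (SE 0.05, edgeR adjusted p = 0.290). Uqcr10, another small subunit, had the largest negative change of the 103 genes, a log2 fold change of -0.37 (SE 0.16, edgeR adjusted p = 0.321).

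That value rests on 2 libraries. Uqcr10 stood at 78.3, 89.7, 96.3, 90.2 and 86.5 FPKM in controls 1 to 5 and at 78.5, 48.2, 70.1, 89.3 and 48.8 FPKM in EA 1 to 5. EA 2 and EA 5, the low ones, are the libraries high in structural RNA, and without both the log2 fold change was -0.12. The part of structural RNA in this value was not tested.

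Complex IV, cytochrome c oxidase, reduces oxygen. Its 17 nuclear genes held the most abundant nuclear transcripts of the set, led by Cox6a1 at 640.2 FPKM and Cox4i1 at 560.0 FPKM. The median log2 fold change was -0.03, with 11 below 0 and 6 above. Cox5b, a zinc-binding subunit, stood at 275, 303, 312, 321 and 320.1 FPKM in controls 1 to 5 and at 279, 279, 267, 273 and 281 FPKM in EA 1 to 5. Control 1 lies among the EA libraries and the other 4 controls lie above them. For Cox5b the log2 fold change was -0.13 (SE 0.04, edgeR adjusted p = 0.245). Cox4i1 averaged 585 ± 39.4 FPKM in the control group and 535 ± 11.8 in the EA group (SD, n = 5 each), a log2 fold change of -0.10 (SE 0.04, edgeR adjusted p = 0.339). For Cox6a1 it was -0.08 (SE 0.04, edgeR adjusted p = 0.407), and -0.04 without EA 2 and EA 5.

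Several complex IV subunits have a common and a tissue-restricted form, and in cortex the common form was far more abundant per length. Cox4i1 exceeded Cox4i2, known from lung and from pericytes, 179-fold as a ratio of mean FPKM. Cox6a1 exceeded the heart and muscle form Cox6a2 197-fold, and Cox6b1 exceeded the testis form Cox6b2 95-fold. Cox7a2l2 exceeded the muscle form Cox7a1 387-fold. Ndufa4, now counted as a complex IV subunit, exceeded its relative Ndufa4l2 53.4-fold. The muscle form Cox8b fell below the minimum at a mean of 0.356 FPKM, beside 388 FPKM for Cox8a.

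The restricted forms also varied more between libraries than the common ones. Cox6b2 ranged from 0.553 FPKM in control 1 to 3.23 in EA 5, Cox6a2 from 1.59 to 5.03 and Cox7a1 from 0.354 to 0.797 FPKM. Their log2 fold changes were 0.25 (SE 0.39), 0.07 (SE 0.29) and -0.18 (SE 0.26), within their errors. That of Cox6b2 was 0.02 without control 1, 0.39 without EA 3 and 0.11 without EA 5. Ndufa4l2 had a log2 fold change of -0.30 (SE 0.17, edgeR adjusted p = 0.464) and Cox4i2 of -0.20 (SE 0.21, edgeR adjusted p = 0.726). Cox4i2, Cox7a1 and Ndufb9 changed sign without EA 2 and EA 5. Without EA 5 alone Cox4i2 was at -0.06 and Cox7a1 at -0.05, and Cox7a1 was at -0.07 without EA 2 and at -0.28 without EA 3. Cox7a2l, which helps join complexes III and IV, averaged 87.5 ± 5.15 FPKM in the control group and 91.1 ± 3.70 in the EA group (SD, n = 5 each), a log2 fold change of 0.08 (SE 0.05). Cox8a had a log2 fold change of -0.11 (SE 0.07), which was -0.06 without EA 5 and -0.03 without EA 2 and EA 5, and Ndufa4 of 0.04 (SE 0.05).

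**Figure D5:**
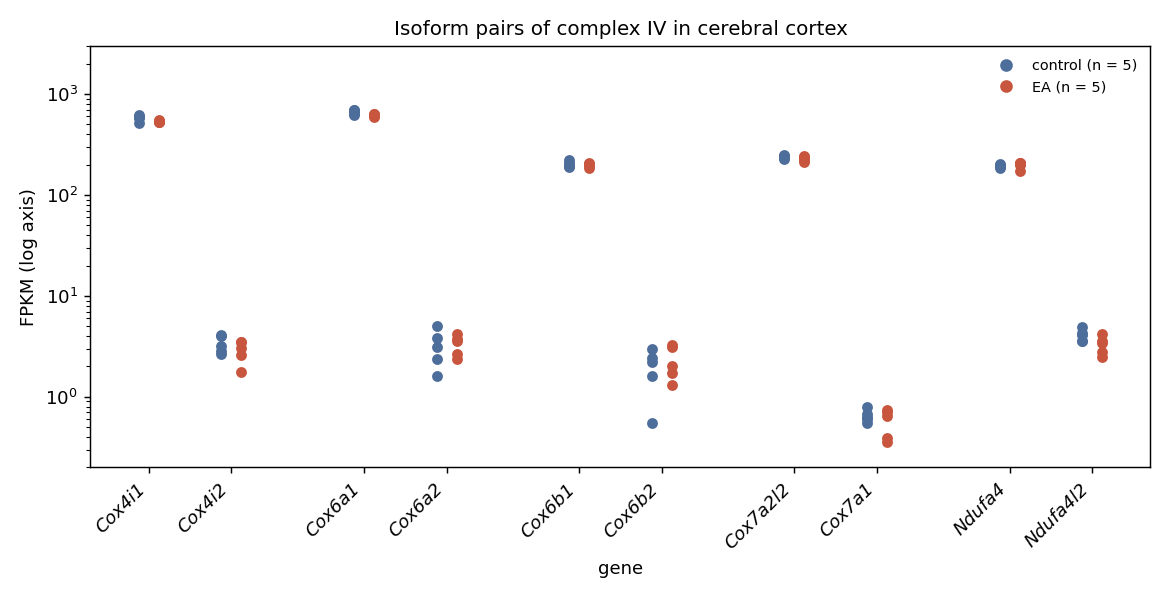
FPKM on a log axis for the common (left) and tissue-restricted (right) member of 5 isoform pairs of complex IV, with control libraries (n = 5) as blue points and EA libraries (n = 5) as red points. The common members lie at 173 to 701 FPKM and the restricted ones at 0.354 to 5.03 FPKM in every library.

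The ATP synthase has 17 nuclear genes here, with a median log2 fold change of -0.02, 10 below 0 and 7 above. Beside Atp5f1e, the subunit gene Atp5f1d, its partner in the central stalk, was lower in the EA group. It stood at 46.6, 59.2, 60.4, 68.5 and 58.5 FPKM in controls 1 to 5 and at 51.6, 49.2, 49.3, 51.5 and 46.4 FPKM in EA 1 to 5. Control 1 lies at the low end of the EA range and the other 4 controls lie above it. The log2 fold change was -0.22 (SE 0.08, edgeR adjusted p = 0.258). Atp5f1b, the catalytic beta subunit and most abundant of the class at 480.2 FPKM, had a log2 fold change of -0.05 (SE 0.05, edgeR adjusted p = 0.720).

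The c subunit of the rotor ring is encoded by 3 genes that give the same mature protein. Their means were 139.6 FPKM for Atp5mc3, 130.2 for Atp5mc2 and 93.3 for Atp5mc1, and their log2 fold changes were 0.04 (SE 0.05), 0.01 (SE 0.06) and -0.01 (SE 0.07). The sign of Atp5mc2 turned with limma on FPKM, as did that of Cox6b1, both close to 0. Atp5mg, a membrane subunit, had the highest p of the class, at 322, 339, 332, 331 and 331 FPKM in controls 1 to 5 and 319, 339, 310.5, 331 and 330.1 FPKM in EA 1 to 5.

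Some rows are uncertain because near-identical copies can share reads. Ndufa1 is listed at 0 in control 1 and at 77.2 to 169 FPKM in the other 9 libraries, which can be a failed estimate in a gene that every cell uses, so no change is drawn for it. Its fitted log2 fold change was -0.18 (SE 0.74). The only row named Ndufs6 is annotated as a processed pseudogene, at 0.224 to 1.64 FPKM, and its log2 fold change of 0.50 (SE 0.52) is the highest of the set. The Uqcrb row used is a short one on chromosome 1 (mean 79.3 FPKM), while a longer second row on chromosome 7 averaged 37.6 FPKM. Second rows also exist for Cox6b1, Ndufv3 and Ndufa10l1. Summing the rows of a symbol gave the same counts of genes below 0.05 apart from 1 more nuclear gene in the upward direction.

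Genes that work with the respiratory chain but lie outside these symbols were read from lists. Among 40 other respiratory chain genes, mostly assembly factors and electron carriers, 2 were higher and 1 lower at an unadjusted p under 0.05. They were Cox20 (log2 fold change 0.21, edgeR adjusted p = 0.310), Sdhaf4 (0.34, edgeR adjusted p = 0.329) and Cyc1, the cytochrome c1 of complex III (-0.12, edgeR adjusted p = 0.247). Of 15 citric acid cycle genes 1 was higher, Dld (0.10, edgeR adjusted p = 0.264), and none was lower. Fh, the fumarase, had the next lowest p (-0.14, edgeR adjusted p = 0.442). Of 14 genes of mitochondrial membranes 1 was higher, the outer membrane channel Vdac3 (0.16, edgeR adjusted p = 0.235), and 1 lower, the prohibitin Phb (-0.14, edgeR adjusted p = 0.293). These shares lie near the background of all genes (6.59% higher and 7.15% lower), and no gene on the lists was called.

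Genes that transcribe and process the mitochondrial genome were tested as 27 genes. Of these 1 was higher at an unadjusted p under 0.05, Fastkd2 (log2 fold change 0.27, edgeR adjusted p = 0.325). Lower at that p were 2, Fastk and Polrmt. Over all genes 6.59% were higher and 7.15% lower. Fastk, whose mitochondrial isoform is known to stabilise Mt-nd6 RNA, averaged 44.4 ± 1.57 FPKM in the control group and 37.4 ± 2.97 in the EA group (SD, n = 5 each), without overlap of the groups (log2 fold change -0.22, edgeR adjusted p = 0.183). Polrmt, the mitochondrial RNA polymerase, averaged 8.27 ± 0.994 and 6.84 ± 0.595 FPKM (log2 fold change -0.25, edgeR adjusted p = 0.261). Tfam, which packages and activates mitochondrial DNA, had a log2 fold change of 0.05 (SE 0.08).

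Among 11 regulators of nuclear respiratory genes none was higher and 1 was lower at an unadjusted p under 0.05. Over all genes these shares were 6.59% and 7.15%. Esrra, an estrogen-related receptor that activates many of the nuclear genes described here, averaged 20.9 ± 1.36 FPKM in the control group and 16.6 ± 0.755 in the EA group (SD, n = 5 each), and the groups did not overlap. Its log2 fold change was -0.31 (SE 0.05, edgeR adjusted p = 0.106). Esrra was not called, and neither was any other regulator. Nrf1, with 0.13 (SE 0.07), Gabpa, with 0.05 (SE 0.07), and the coactivator Ppargc1a, with 0.06 (SE 0.09), did not reach an unadjusted p under 0.05. By sign 7 of the 11 lay above 0 and 4 below.

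Marker genes of cell types that differ in mitochondria were set beside these values. Over all genes, 7.15% were lower and 6.59% higher in the EA group at an unadjusted p under 0.05. Of 7 oligodendrocyte markers 3 were lower at that p, and all 7 lay below 0. Their summed level was 1004 to 1448 FPKM in controls (highest in control 1) and 889 to 1148 in the EA group. Of 6 endothelial markers tested 3 were lower and all 6 lay below 0. The 7 endothelial markers found by symbol summed to 70.9 to 86.3 FPKM in controls (highest in control 1) and 61.8 to 67.9 in the EA group. Of 5 pericyte and smooth muscle markers 1 was lower and all 5 lay below 0. They summed to 117 to 139 FPKM in controls and 116 to 127 in the EA group. Of 2 blood cell markers tested 1 was lower and both lay below 0. The 6 blood cell markers found by symbol summed to 3.89 to 18.1 FPKM in controls and 2.71 to 8.18 in the EA group.

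Of 8 neuronal markers 2 were higher, Gad1 and Gad2, while by sign 5 of the 8 lay above 0 and 3 below. The 8 summed to 1666 to 1906 FPKM in controls and 1516 to 2124 in the EA group. None of 7 astrocyte, 7 microglia or 4 meningeal markers and not the 1 skeletal muscle marker tested had an unadjusted p under 0.05. The part of cell composition in the values of the respiratory chain genes was not tested.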

How the data were processed

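Cerebral cortex of 5 control and 5 EA rats was measured by stranded poly(A) RNA-Seq. The authors trimmed the reads, aligned them with HISAT2 to Rnor_6.0 and assembled transcripts with StringTie. Versions in the submitters' processing notes are StringTie 1.3.0, Bowtie 0.12.2 and HISAT2 2.0. From that assembly the authors derived the deposited FPKM of each gene. The table also holds whole-number estimated counts per gene, deposited by the authors, which exceed the valid reads the study lists for each library. How they were drawn is not given in the sources used here, and limma on FPKM does not use them. The table has 0 value columns without a sample. An FPKM of 1e-04 in it stands for 0. FPKM divides by length and by a total to which mitochondrial transcripts contribute 35.7% to 43.9% of the summed FPKM, so the ratio of sums within a library was also taken.

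Groups come from the labels, which name no batch. Genes with at least 0.5 FPKM in at least 5 of 10 libraries were tested with edgeR 4.0.16 (TMM scaling, quasi-likelihood test, no covariates) on the counts, with Benjamini-Hochberg adjustment over all 15169 genes kept and a call at an adjusted p below 0.05 with over 1.2-fold change. Each standard error is the log2 fold change over the square root of its F statistic. The alternatives were DESeq2 1.42.0, limma 3.58.1 on log2(FPKM + 1) and log2(FPKM + 0.1), other scalings and filters, summed rows per symbol, the replicate number as a block, and leaving out libraries. R 4.3.3, Python 3.11.15, pandas 2.3.3, numpy 2.4.6 and matplotlib 3.10.9 were used. The fits were tested on simulated data.

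The genes and lists were chosen with earlier results of these data known, so sums and medians over them carry no p-value. Genes named are all mitochondrial ones, the most abundant and the 2 of lowest p in each nuclear class, genes whose groups do not overlap, the isoform groups, and the 2 of lowest p in each companion list. A few others were named after their values were seen: Ndufs1, Sdhb, Uqcrc1, Atp5mg, the rows described as uncertain, and Tfam, Gabpa, Ppargc1a, Fastkd2 and Sdhaf4 from the lists. The symbols planned for mitochondrial rRNA and tRNA match no row, so their annotated type was used. Promoters come from RefSeq (GRCr8), a build other than that of the files, and no sequence of the mitochondrial genome was used here. The motifs were chosen after the values were seen. The NRF1 site was first searched as a longer palindrome with a free base and then as the shorter core, and how many of its genes lay below 0 differed between both.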

Additional observations from a re-analysis of the deposited data

Results flagged for a closer look

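A library was marked when it was the highest or lowest of its group of 5 and stood apart from the nearest of the others by more than Dixon's 95% limit of 0.71 of the group's range. Of 110 groups tested 18 were marked, where chance marks about 1 in 20 groups, and most share EA 3 or control 1. EA 3 was the high library of the EA group in Mt-co3 (32024 FPKM, others 28161 to 28978), Mt-atp8 (30392, others 26610 to 27272), Mt-co2 (27633, others 23087 to 24381), Mt-cyb (19444, others 16655 to 17185) and Mt-nd5 (5535 FPKM, others 4821 to 4961). It was also the high one in the summed mitochondrial FPKM (262040), in their share of all FPKM (43.9%) and in the log2 ratio of mitochondrial to nuclear FPKM. That ratio was 4.68 in all, 4.74 for complex I, 4.38 for complex III, 4.89 for complex IV and 4.65 for complex V. EA 3 was the low library for Ndufa4 (173 FPKM, others 199 to 209).

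Control 1 was the high library of the control group in Mt-co1 (37893 FPKM, others 29829 to 31466), Mt-atp8 (29225, others 20564 to 23069) and Mt-nd3 (6752 FPKM, others 4829 to 5222), and the low one in Ndufb7 (69.1 FPKM, others 85.6 to 91.6). Control 3 was high in Atp5f1e (310.1 FPKM, others 257 to 271). These measures share reads and totals within a library, so the marks are not independent of each other.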

How the results depend on the processing

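No gene was called and all 13 mitochondrial genes stayed above 0 in each of the 20 alternatives. The median log2 fold change stayed positive for the mitochondrial genes (0.10 to 0.23 when single libraries were left out) and negative for the nuclear genes (-0.04 to -0.01). The difference in the log2 ratio of sums was 0.14 to 0.27 without single libraries, and 0.16 to 0.20 with medians, deposited counts, subunits only or without genes that overlap.

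The counts at an unadjusted p under 0.05 moved more. Mitochondrial genes higher in the EA group numbered 2, and 1 with limma on either pseudocount. Nuclear genes higher numbered 1, 2 with median-of-ratios scaling or summed rows, and 3 with a minimum of 1 FPKM. Nuclear genes lower numbered 13, 21 with limma on either pseudocount, and 6 without EA 2 and EA 5. Without single libraries these 3 counts ran from 1 to 10, 1 to 4 and 7 to 18. The matching shares of all genes are not given for these settings, and the causes were not tested.

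Signs near 0 turned for Atp5mc2 (-0.0194 and -0.0195) and Cox6b1 (-0.00923 and -0.00927) with limma at a pseudocount of 1 and 0.1, and for Cox4i2 (0.0308), Cox7a1 (0.125) and Ndufb9 (0.00256) without EA 2 and EA 5. When single libraries were left out, signs also turned for Atp5mc1 (range -0.0518 to 0.0473), Atp5mc2 (-0.0217 to 0.0530), Cox6a2 (-0.0957 to 0.286), Cox6b1 (-0.00991 to 0.0458) and Ndufv2 (-0.0350 to 0.0208).

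Replicate numbers did not pair the libraries: correlations of same-numbered deviations were -0.0026 to 0.0605, and 2 of 5 numbers correlated best with their own. With the number as a block, edgeR called 0 of all genes against 3, the counts at an unadjusted p under 0.05 were 2, 1 and 12, and the medians were 0.16 and -0.03.

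With 5 libraries a group, most changes seen here lie under the fold a call needs, and a p that misses the threshold does not show equal levels. Depth does not limit abundant genes, while Cox7a1, Cox6b2, Cox6a2 and Ndufs6 rest on few reads.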
